A study of Mus musculus with 6 samples.

Results

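The clustered protocadherins are the cadherin-family genes of the alpha, beta and gamma arrays, taken here as every row of the deposited gene table whose symbol places it in one of these arrays. The rule found 59 of 23361 rows, 15 alpha, 22 beta and 22 gamma. On the mouse genome (build mm10, positions from RefSeq on GRCm38) the arrays follow each other on the plus strand of chromosome 18, the alpha genes from 36930285 to 37188897, the beta genes from 37264998 to 37521419 and the gamma genes from 37661775 to 37841873. The series holds 3 libraries of whole hippocampus from mice homozygous for an allele that lacks exon 4 of Tet1 (Tet1Δe4-/-, called Tet1-deficient here) and 3 from Tet1+/+ mice (wild-type). All the mice had received electroconvulsive shock, which evokes a tonic-clonic seizure, 1.5 to 2 hours before the tissue was taken, so the shock is shared by both groups and its own effect was not measured. Tet1 encodes a dioxygenase that oxidises 5-methylcytosine. The labels give no age, strain or sex, and do not say whether a library comes from 1 mouse. The values are FPKM, that is, read fragments divided by transcript length and by the total of the library, so levels of different genes can be set side by side. Read depth is unknown.

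Clustered protocadherins are cell-surface adhesion proteins that bind the same isoform on a neighbouring membrane. In neurons most isoforms are switched on in a different combination from cell to cell, and the resulting surface code is known for letting the branches of a neuron recognise and avoid each other. Each alpha and gamma gene has its own promoter and a variable first exon, which is spliced to constant exons shared by the whole array, whereas each beta gene is a single exon. Promoter choice is known to depend on CTCF, cohesin and DNA methylation, with methylated promoters silent. The C-type isoforms (Pcdhac1, Pcdhac2, Pcdhgc3, Pcdhgc4 and Pcdhgc5), at the 3′ ends of the alpha and gamma arrays, are known to be expressed more uniformly across neurons.

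How far a gene value can be told apart from its neighbours differed between the arrays. In GENCODE M21 transcripts reaching the shared 3′ end, 45.1 to 51.4% of the bases of an alpha gene and 54.1 to 58.3% of those of a gamma gene lay in exons used by no other member. The rest are the constant exons, whose reads had to be divided between members by the authors' software. For beta genes the figure was 90.3 to 100%. Stretches of an exon can also recur in other annotated genes. The share of 50-base stretches found in no other annotated gene ran from 0.847 to 51.8% for alpha, from 1.02 to 58.4% for gamma and from 35.8 to 100% for beta genes. It was lowest for Pcdha4 (0.847%), Pcdhga10 (1.02%) and Pcdha11 (1.88%), so by this measure the values of these genes are the least certain. Whether similar exons or another gene model at the same place lowered it was not checked. Values of alpha members, and of gamma members, therefore share reads with each other, and whether the division of shared reads contributed to any difference below was not tested.

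Tet1 transcript itself measured 0.977, 0.718 and 0.897 FPKM in wild-type libraries against 0.740, 0.685 and 0.638 FPKM in the Tet1-deficient ones, and a value over all exons does not check the loss of a single exon. Wild-type replicate 1 and Tet1-deficient replicate 1 stood apart from the other 4 libraries on the first principal component, which held 53.3% of the variance. The title code of wild-type replicate 1 holds an f where the others hold an m, which the labels do not explain. That library had 63.5 FPKM of Xist, the transcript of the inactive X chromosome, against at most 0.202 FPKM in the others, and 0.0381 FPKM of the Y-linked Ddx3y, against 16.7 to 35.2 FPKM. By these genes it was female and the others male, so sex was not balanced between the genotypes. Neuronal markers summed to 2059 to 2266 FPKM over the wild-type and 2175 to 2432 FPKM over the Tet1-deficient libraries, and markers of dentate granule cells, CA1 and CA3 pyramidal cells were all present. Markers of choroid plexus summed to 303 FPKM in wild-type replicate 3 and 196 FPKM in Tet1-deficient replicate 2, against at most 21.9 FPKM elsewhere. Of the marker genes in these lists 0 were at 0 in all libraries. Bulk values cannot tell fewer cells of a type from less RNA per cell.

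The summed output of each array overlapped between the genotypes. The alpha genes together gave 43.0, 37.6 and 37.3 in the wild-type libraries and 39.8, 39.0 and 38.6 in the Tet1-deficient libraries, in FPKM, with means of 39.3 ± 3.20 and 39.1 ± 0.618 FPKM (SD, n = 3). The beta genes together gave 49.4, 39.0 and 39.4 in the wild-type libraries and 44.8, 41.0 and 42.1 in the Tet1-deficient libraries, with means of 42.6 ± 5.87 and 42.6 ± 1.96 FPKM (SD, n = 3). The gamma genes gave 185, 205 and 207 in the wild-type libraries and 168, 209 and 198 in the Tet1-deficient libraries, with means of 199 ± 12.2 and 191 ± 21.3 FPKM (SD, n = 3). The genotypes overlapped in all 3 totals, and the log2 ratios of the means were −0.0066, 0.0019 and −0.058. Gamma transcripts made up 70.5% of the clustered protocadherin FPKM over the 6 libraries, beta 15.4% and alpha 14.2%. The libraries that stand apart had the highest beta and the lowest gamma totals of all 6.

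**Figure D1:**
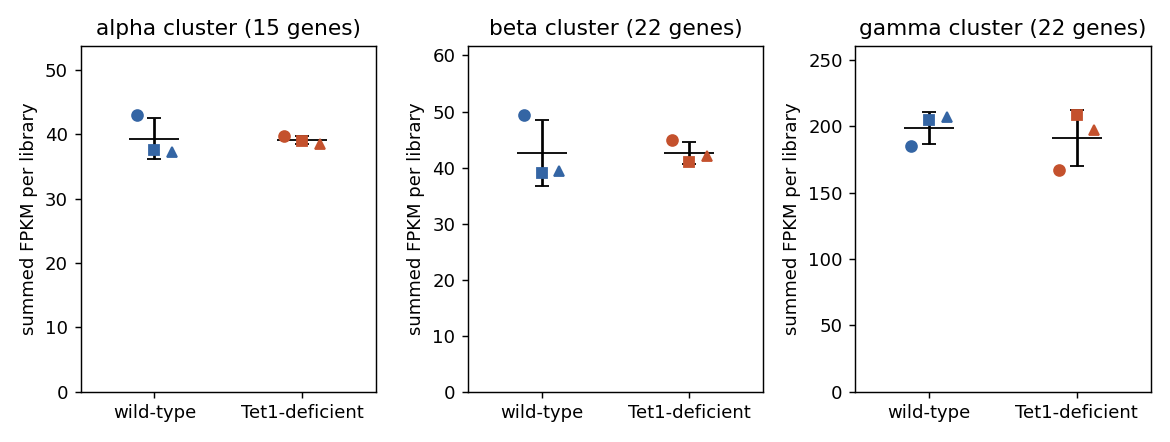
Summed FPKM of the alpha, beta and gamma arrays in each library (circle, square and triangle for replicates 1, 2 and 3, blue wild-type, red Tet1-deficient), with the mean and SD of 3 libraries as lines. The genotypes overlap in all 3 panels, and the circles, replicate 1 of each genotype, are the highest in beta and the lowest in gamma.

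Single genes were compared with limma on log2(FPKM + 1) over the 12533 genes of the table with a mean of at least 1 FPKM, 52 members among them. The difference is always Tet1-deficient minus wild-type, on a scale that understates changes of genes near 1 FPKM. At an adjusted p of 0.05 (Benjamini-Hochberg over all tested genes) 0 of the 52 members passed, where 0.0319% of all tested genes did. At an unadjusted limma p under 0.05 there were 10 members, or 19.2%, against 1.36% of all tested genes. Of these 10, 3 were higher in Tet1-deficient libraries (background 0.447%) and 7 lower (background 0.918%). The 3 libraries of one genotype lay wholly above the 3 of the other for 14 members, or 26.9%, against 4.13% of tested genes. Of these 14, 5 were higher (background 1.91%) and 9 lower (background 2.21%). They comprised 5 of 10 tested alpha genes, 0 of 20 tested beta genes and 9 of 22 gamma genes. The median log2 difference was −0.033 over the 52 members and 0.0055 over all tested genes, while the median absolute difference was 0.132 against 0.0545. By array the median absolute difference was 0.167 for alpha, 0.0675 for beta and 0.217 for gamma genes. Members and all tested genes were not matched for level in this comparison. The differences thus had both signs, beside totals that overlapped, and whether the arrays differed from each other in this was not tested. With weights estimated for each library 4 members passed (background 0.471%), namely Pcdhga3, Pcdhga6, Pcdhgb4 and Pcdhgb6, and 16 had an unadjusted p under 0.05 (background 9.83%). With the split of libraries as a term 0 of the 52 members passed (background 0.0638%) and 13 had an unadjusted p under 0.05 (background 6.77%). In the 4 libraries that lie together 0 of 51 tested members passed (background 0.104%) and 9 had an unadjusted p under 0.05 (background 3.95%). Both libraries that stand apart lay above the other 4 in 28.5% of all tested genes and below them in 35.0%. Among tested members these shares were 0 and 0% in alpha, 35.0 and 5% in beta, and 0 and 22.7% in gamma. Whether this split lowered the background share of the main fit was not tested.

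**Figure D2:**
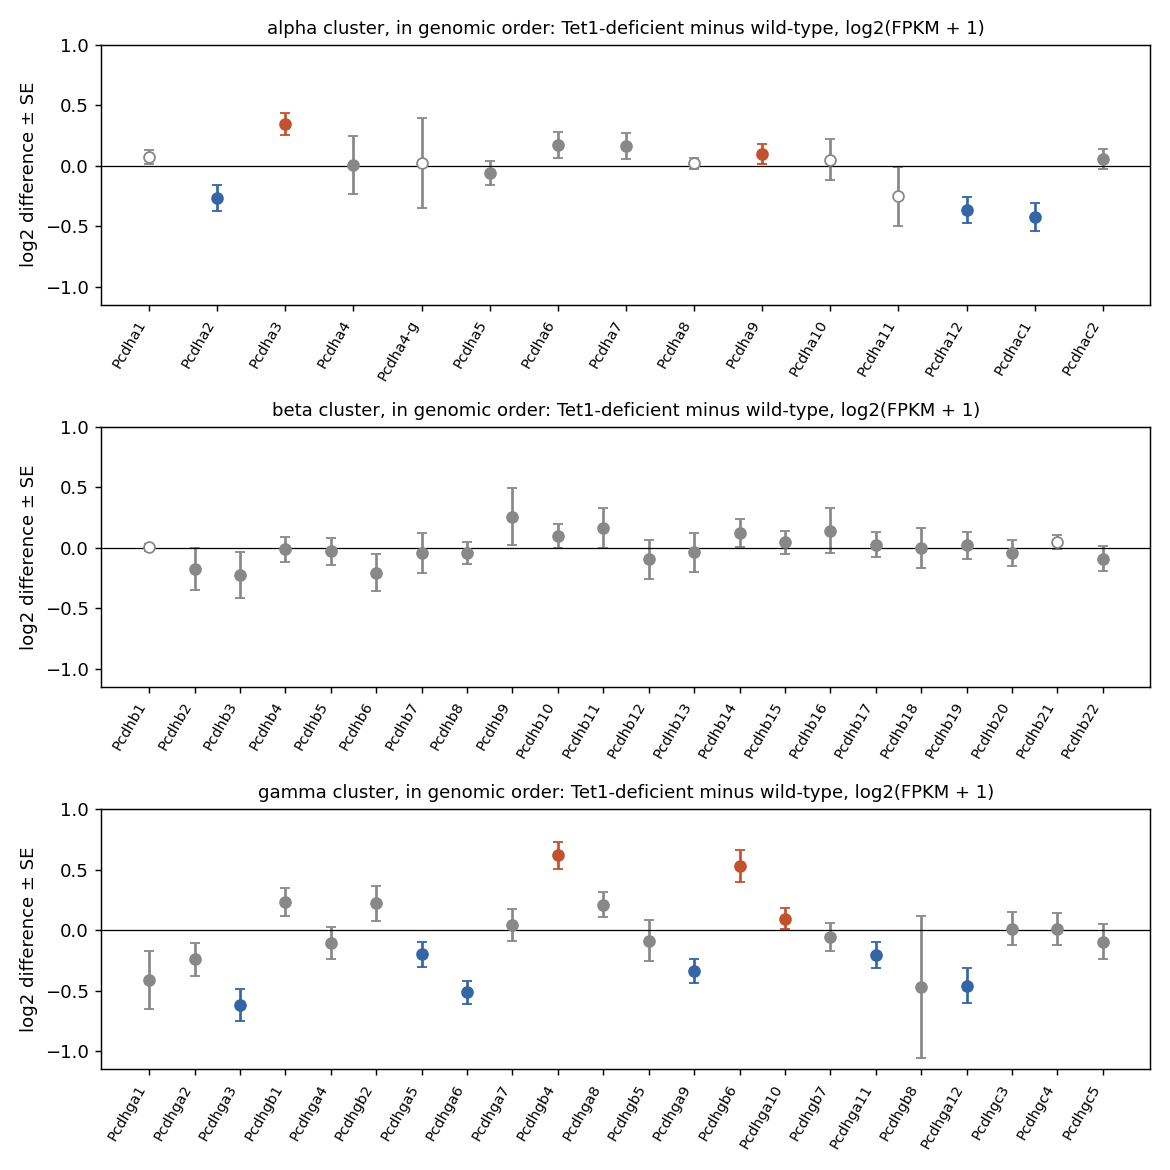
Log2 difference of each member (Tet1-deficient minus wild-type, log2(FPKM + 1), bars are the limma SE) in genomic order. Red and blue points are members whose 3 libraries of each genotype do not overlap (higher and lower in Tet1-deficient), grey points overlap, and open points have a mean under 1 FPKM. Coloured points occur in alpha and gamma and not among the beta genes.

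In the alpha array, the genes from Pcdha1 to Pcdha12 ran from 0.116 FPKM on average (Pcdha8) to 3.02 FPKM (Pcdha12). Pcdha1, Pcdha8, Pcdha10, Pcdha11 and Pcdha4-g had means under 1 FPKM and were left out of the main test, with values of 0.0543 to 1.91 FPKM for the first 4. Pcdha4-g, absent from the RefSeq table used, was listed at 0 in replicate 1 of both genotypes and between 0.755 and 1.11 FPKM in the other 4 libraries. Pcdha4 measured 3.64, 1.73 and 1.99 FPKM in the wild-type libraries, and 2.59, 2.99 and 1.68 FPKM where Tet1 was deficient. Its highest value was in wild-type replicate 1, and the genotypes overlapped (log2 difference 0.0064, SE 0.237, unadjusted limma p 0.979). Near the 5′ end, Pcdha2 measured 2.06, 1.94 and 1.58 FPKM in the wild-type libraries, and 1.55, 1.24 and 1.35 FPKM where Tet1 was deficient. Its wild-type libraries all lay above the Tet1-deficient ones (log2 difference −0.26, SE 0.108, unadjusted limma p 0.0448). The next gene had the opposite sign. Pcdha3 measured 1.73, 1.79 and 1.97 FPKM in the wild-type libraries, and 2.78, 2.40 and 2.61 FPKM where Tet1 was deficient, again without overlap (log2 difference 0.35, SE 0.0909, unadjusted limma p 0.00684). Pcdha5, Pcdha6 and Pcdha7 lay between 1.66 and 2.80 FPKM in all libraries and overlapped. Pcdha9 measured 2.31, 2.31 and 2.31 FPKM in the wild-type libraries, and 2.62, 2.49 and 2.49 FPKM where Tet1 was deficient. These 6 values were close, and the separation came with a log2 difference of only 0.094 (SE 0.0807, unadjusted limma p 0.281).

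Pcdha12, the most abundant variable alpha isoform, was lower in Tet1-deficient libraries. Pcdha12 measured 3.92, 3.28 and 3.36 FPKM in the wild-type libraries, and 2.22, 2.43 and 2.89 FPKM where Tet1 was deficient. All 3 wild-type libraries were above all 3 Tet1-deficient ones, with means of 3.52 ± 0.345 FPKM (SD, n = 3) for wild-type against 2.51 ± 0.343 FPKM (SD, n = 3) for Tet1-deficient libraries (log2 difference −0.37, SE 0.111, unadjusted limma p 0.0133). With library weights its log2 difference was −0.18. The C-type Pcdhac1 follows it in the array. Pcdhac1 measured 1.98, 1.97 and 1.64 FPKM in the wild-type libraries, and 1.30, 0.876 and 1.22 FPKM where Tet1 was deficient. It too separated the genotypes, with means of 1.86 ± 0.191 FPKM (SD, n = 3) for wild-type against 1.13 ± 0.228 FPKM (SD, n = 3) for Tet1-deficient libraries, and it had the lowest unadjusted p but 1 in the array (log2 difference −0.43, SE 0.115, unadjusted limma p 0.00793). Pcdhac2, known for spacing the axons of serotonergic neurons, was the main alpha transcript. Pcdhac2 measured 17.3, 15.9 and 15.4 FPKM in the wild-type libraries, and 17.0, 17.2 and 16.4 FPKM where Tet1 was deficient. These values overlapped (log2 difference 0.055, SE 0.0862, unadjusted limma p 0.543).

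As shares of summed alpha FPKM, Pcdhac2 took 41.3% ± 1.02 in wild-type and 43.1% ± 0.910 in Tet1-deficient libraries (SD, n = 3). Pcdha12 took 8.95% ± 0.196 in wild-type and 6.43% ± 0.972 in Tet1-deficient libraries, and Pcdhac1 4.75% ± 0.433 in wild-type and 2.90% ± 0.568 in Tet1-deficient libraries. Pcdha3 took 4.69% ± 0.631 in wild-type and 6.64% ± 0.429 in Tet1-deficient libraries. The genotypes did not overlap in any of these shares. For Pcdhac2 the gap was small, from 42.3% in wild-type replicate 2 to 42.4% in Tet1-deficient replicate 3. The C-type pair together held 46.0% ± 1.36 in wild-type and 46.0% ± 0.399 in Tet1-deficient libraries (SD, n = 3), and these values overlapped. For Pcdha2, Pcdha3, Pcdha12 and Pcdhac1 the log2 differences were −0.26, 0.47, −0.61 and −0.37 in the pair of libraries that stand apart (1 library against 1), and −0.27, 0.29, −0.24 and −0.46 in the other 4. Their sign in any subset of libraries follows from groups that do not overlap, so only the size is informative.

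**Figure D3:**
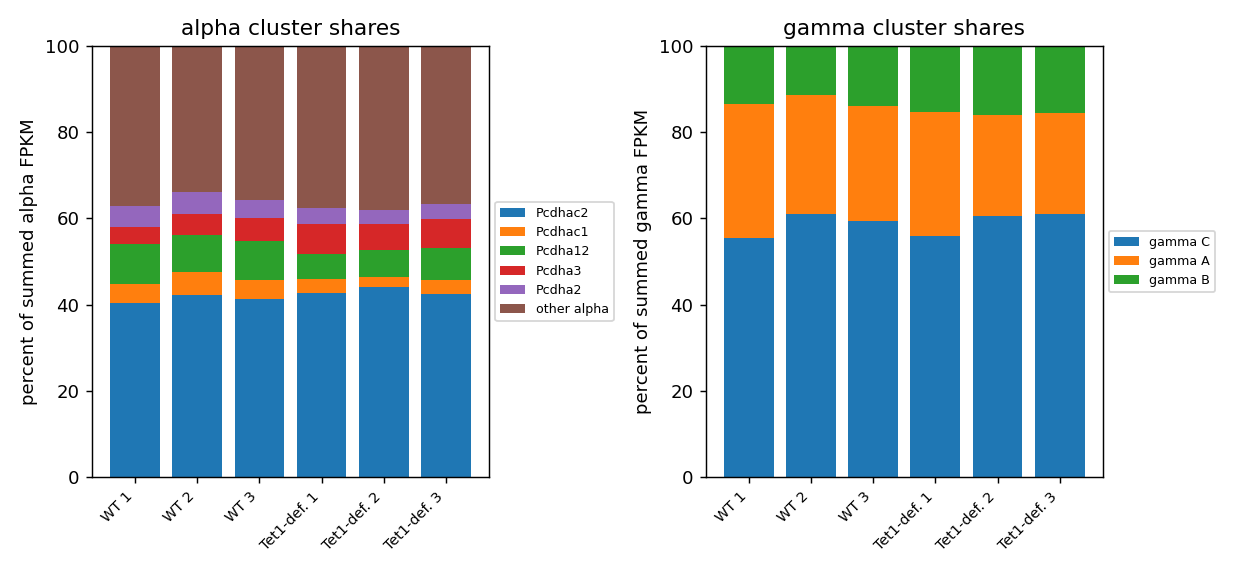
Percent of summed alpha FPKM (left) and summed gamma FPKM (right) held by single alpha isoforms or by the gamma A, B and C subfamilies in each library. Pcdhac2 and the gamma C isoforms hold the largest blocks in every library, and the gamma B block is smaller in each wild-type than in each Tet1-deficient library.

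The beta genes, which are not spliced to constant exons, overlapped between the genotypes in all 22 cases. Pcdhb21 and Pcdhb22, with 90.3% and 93.1% of their bases in no other member, share the rest of their exons with another member. All 20 tested members had an unadjusted limma p of at least 0.219, 8 with higher and 12 with lower means of log2 values in Tet1-deficient libraries, and their log2 differences ran from −0.23 to 0.26. Pcdhb1, the first of the array, was nearly silent, at 0 to 0.0611 FPKM. Pcdhb21 measured 0.566 to 0.769 FPKM, and both were under the limit for testing. The other beta genes averaged 1.08 to 4.13 FPKM, a narrow band with no dominant isoform. The most abundant were Pcdhb9, Pcdhb7, Pcdhb17 and Pcdhb20, which together held 34.9% of summed beta FPKM in wild-type and 36.1% in Tet1-deficient libraries on average.

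Pcdhb9 measured 3.73, 5.27 and 2.25 FPKM in the wild-type libraries, and 5.25, 3.96 and 4.31 FPKM where Tet1 was deficient. This gene had the widest absolute range of the array, 2.25 to 5.27 FPKM, with both its lowest and its highest value in wild-type (log2 difference 0.26, SE 0.236, unadjusted limma p 0.313). Its log2 difference was 0.0085 without wild-type replicate 3 and 0.48 without wild-type replicate 2. Pcdhb7 measured 4.74, 3.32 and 4.51 FPKM in the wild-type libraries, and 3.37, 3.74 and 5.04 FPKM where Tet1 was deficient. Pcdhb17 measured 4.61, 3.73 and 3.75 FPKM in the wild-type libraries, and 4.27, 4.21 and 3.84 FPKM where Tet1 was deficient. Pcdhb17 had the smallest relative range of the 4, and neither gene separated the genotypes (log2 difference −0.042, SE 0.165, unadjusted limma p 0.808 for Pcdhb7, and log2 difference 0.026, SE 0.104, unadjusted limma p 0.812 for Pcdhb17). Pcdhb20 measured 3.26, 2.56 and 2.69 FPKM in the wild-type libraries, and 3.02, 2.49 and 2.68 FPKM where Tet1 was deficient. It too overlapped (log2 difference −0.040, SE 0.109, unadjusted limma p 0.728).

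The smallest unadjusted p-values among beta genes belonged to Pcdhb6, Pcdhb3 and Pcdhb9. Pcdhb6 measured 1.31, 0.866 and 1.58 FPKM in the wild-type libraries, and 0.699, 1.01 and 1.12 FPKM where Tet1 was deficient. Pcdhb3 measured 2.36, 1.06 and 1.92 FPKM in the wild-type libraries, and 1.15, 1.58 and 1.28 FPKM where Tet1 was deficient. Both genes had means that were lower in Tet1-deficient hippocampus, with libraries that overlapped (log2 difference −0.20, SE 0.152, unadjusted limma p 0.219 for Pcdhb6, and log2 difference −0.23, SE 0.189, unadjusted limma p 0.271 for Pcdhb3). Without wild-type replicate 1 the log2 difference of Pcdhb3 was −0.074, without wild-type replicate 2 −0.43, and in the 4 libraries that lie together −0.015. That of Pcdhb6 was −0.10 without wild-type replicate 3, −0.33 without wild-type replicate 2 and 0.0022 with library weights. The libraries that stand apart both exceeded the other 4 in 7 of 20 tested beta genes (35.0%, against 28.5% of all tested genes) and both lay below them in 1 (5%, against 35.0%). Without these libraries the log2 ratio of the beta total was 0.084, against 0.0019 with all 6.

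**Figure D4:**
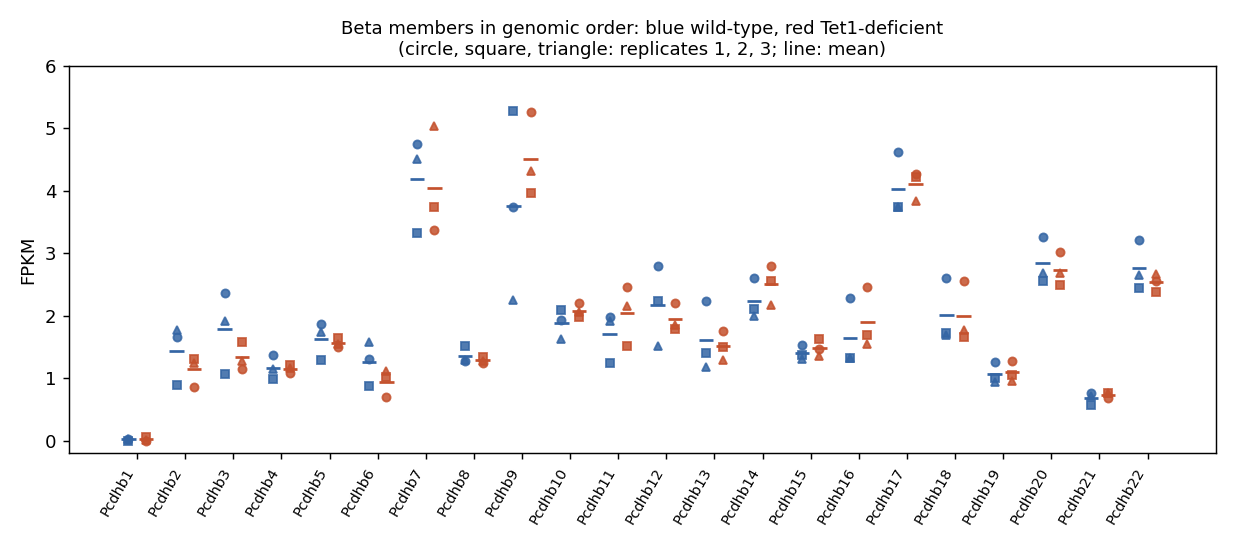
FPKM of each beta gene in genomic order (blue wild-type, red Tet1-deficient, circle, square and triangle for replicates 1, 2 and 3, short lines for means). Blue and red points overlap at every gene.

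Gamma genes fall into A, B and C subfamilies by sequence, with A and B genes interleaved along the array and the C genes at its 3′ end. The 12 gamma A genes summed to 57.5, 56.9 and 55.0 in the wild-type libraries and 47.8, 48.6 and 46.5 in the Tet1-deficient libraries, in FPKM. Every Tet1-deficient library was below every wild-type library, with means of 56.5 ± 1.30 and 47.6 ± 1.06 FPKM (SD, n = 3) and a log2 ratio of −0.25. The 7 gamma B genes summed to 24.9, 23.1 and 29.0 in the wild-type libraries and 25.9, 33.5 and 30.7 in the Tet1-deficient libraries, with means of 25.7 ± 3.00 and 30.0 ± 3.89 FPKM (SD, n = 3), a log2 ratio of 0.23 and libraries that overlapped. Pcdhgb8, annotated as a polymorphic pseudogene, varied from 0.295 to 4.80 FPKM and was low in 1 library of each genotype. Without it, a choice made after its values were seen, the gamma B sum was 21.6, 22.7 and 24.2 in the wild-type libraries and 25.6, 31.1 and 28.8 in the Tet1-deficient libraries, with every Tet1-deficient library above every wild-type one and a log2 ratio of 0.32. The 3 gamma C genes summed to 103, 125 and 123 in the wild-type libraries and 93.8, 126 and 120.5 in the Tet1-deficient libraries, and overlapped.

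Relative to summed gamma FPKM, gamma B held 12.9% ± 1.42 in wild-type and 15.7% ± 0.353 in Tet1-deficient libraries (SD, n = 3), without overlap. Gamma A held 28.5% ± 2.34 in wild-type and 25.1% ± 2.97 in Tet1-deficient libraries (SD, n = 3), and gamma C 58.6% ± 2.82 in wild-type and 59.2% ± 2.76 in Tet1-deficient libraries (SD, n = 3), both with overlap. In absolute terms the gamma A mean was lower by 8.87 FPKM and the gamma B mean higher by 4.37 FPKM. These sums add members chosen with results of these data known, so no test is given for them. Of the 12 gamma A genes 9 had lower and 3 higher log2 means in Tet1-deficient libraries, and of the 7 gamma B genes 3 lower and 4 higher.

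Along the array the first 3 genes were all gamma A. Pcdhga1 overlapped at 1.54 to 4.36 FPKM and Pcdhga2 at 1.46 to 2.69 FPKM. The third, Pcdhga3, did not overlap. Pcdhga3 measured 5.43, 5.13 and 4.87 FPKM in the wild-type libraries, and 3.81, 2.80 and 2.51 FPKM where Tet1 was deficient, with means of 5.15 ± 0.279 FPKM (SD, n = 3) for wild-type against 3.04 ± 0.684 FPKM (SD, n = 3) for Tet1-deficient libraries and a ratio of 0.591 (log2 difference −0.62, SE 0.133, unadjusted limma p 0.00252, Benjamini-Hochberg adjusted p 0.989). Pcdhgb1, Pcdhga4 and Pcdhgb2 followed with overlapping values between 3.14 and 6.22 FPKM.

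Further along, Pcdhga5 measured 4.09, 3.55 and 3.33 FPKM in wild-type libraries against 3.29, 3.07 and 2.79 FPKM in the Tet1-deficient ones. It was lower in every Tet1-deficient library by a small margin. Its neighbour had a larger gap. Pcdhga6 measured 3.48, 3.90 and 3.35 FPKM in the wild-type libraries, and 2.06, 2.16 and 2.40 FPKM where Tet1 was deficient, with means of 3.58 ± 0.286 FPKM (SD, n = 3) for wild-type against 2.21 ± 0.173 FPKM (SD, n = 3) for Tet1-deficient libraries and a ratio of 0.617 (log2 difference −0.51, SE 0.0946, unadjusted limma p 0.00105, Benjamini-Hochberg adjusted p 0.598). Pcdhga7 overlapped at 4.48 to 6.33 FPKM. Next to it stood the member with the smallest unadjusted p of all 52. Pcdhgb4 measured 3.45, 3.41 and 3.12 FPKM in the wild-type libraries, and 5.06, 6.60 and 5.35 FPKM where Tet1 was deficient. Each Tet1-deficient library was above each wild-type one, with means of 3.33 ± 0.179 FPKM (SD, n = 3) for wild-type against 5.67 ± 0.817 FPKM (SD, n = 3) for Tet1-deficient libraries and a ratio of 1.71 (log2 difference 0.62, SE 0.112, unadjusted limma p 0.000926, Benjamini-Hochberg adjusted p 0.576).

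Pcdhga8 and Pcdhgb5 overlapped, at 4.96 to 6.85 and 3.58 to 5.92 FPKM. Pcdhga9 measured 3.97, 4.01 and 3.66 FPKM in wild-type libraries against 2.98, 3.14 and 2.50 FPKM in the Tet1-deficient ones. It was lower throughout (log2 difference −0.34, SE 0.0993, unadjusted limma p 0.0120). The adjacent Pcdhgb6 had the opposite sign. Pcdhgb6 measured 3.70, 4.31 and 3.87 FPKM in the wild-type libraries, and 5.0, 6.43 and 7.17 FPKM where Tet1 was deficient, with means of 3.96 ± 0.314 FPKM (SD, n = 3) for wild-type against 6.20 ± 1.10 FPKM (SD, n = 3) for Tet1-deficient libraries and a ratio of 1.57 (log2 difference 0.53, SE 0.133, unadjusted limma p 0.00555). Pcdhga10 measured 3.50, 3.31 and 3.38 FPKM in wild-type libraries against 3.96, 3.62 and 3.51 FPKM in the Tet1-deficient ones. Its groups were separated by only 0.0162 FPKM.

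Pcdhgb7 overlapped at 2.23 to 3.05 FPKM. Pcdhga11, the most abundant of the A and B genes, measured 9.92, 9.39 and 9.44 FPKM in wild-type libraries against 8.27, 7.14 and 9.23 FPKM in the Tet1-deficient ones. Its Tet1-deficient libraries were all lower, 1 of them by little (log2 difference −0.21, SE 0.107, unadjusted limma p 0.0969). The last gamma A gene was lower as well. Pcdhga12 measured 4.61, 6.96 and 5.66 FPKM in the wild-type libraries, and 3.56, 3.74 and 4.30 FPKM where Tet1 was deficient, with means of 5.74 ± 1.18 FPKM (SD, n = 3) for wild-type against 3.87 ± 0.383 FPKM (SD, n = 3) for Tet1-deficient libraries (log2 difference −0.46, SE 0.144, unadjusted limma p 0.0160). Pcdha2, Pcdhga9, Pcdhgb6 and Pcdhga12, together with Pcdhga5, Pcdhga10 and Pcdhgb8, were singled out after their values were seen. All 6 gamma genes with an unadjusted p under 0.05 had groups that did not overlap, which fixes their sign in any subset of libraries, and sizes in the subsets are given for 4 of them. For Pcdhgb4 the log2 difference was 0.45 in the pair that stands apart and 0.71 in the other 4, for Pcdhgb6 0.35 and 0.62, for Pcdhga3 −0.42 and −0.72, and for Pcdhga6 −0.55 and −0.49. With library weights these 4 passed the threshold of limma's Benjamini-Hochberg adjusted p, with log2 differences of 0.59 (adjusted p 0.0152), 0.64 (adjusted p 0.00936), −0.76 (adjusted p 0.00334) and −0.48 (adjusted p 0.030). The weights of the 2 libraries that stand apart were 0.178 and 0.176. Those of the others were 2.99 and 1.57 for wild-type replicates 2 and 3, and 0.988 and 6.89 for Tet1-deficient replicates 2 and 3. On the Tet1-deficient side this fit therefore rested mainly on replicate 3.

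**Figure D5:**
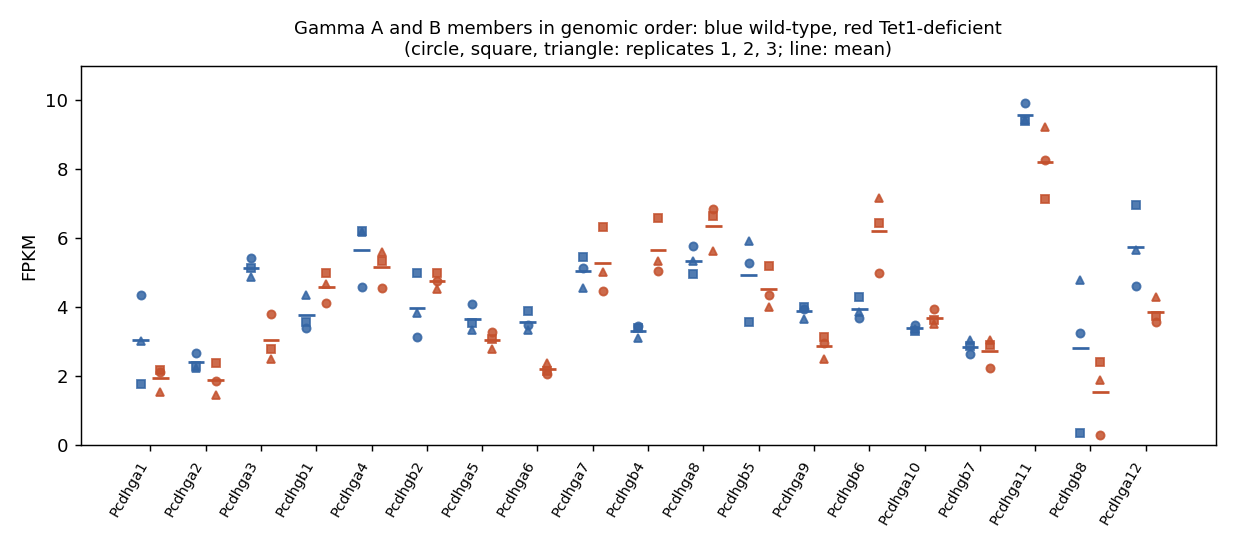
FPKM of each gamma A and gamma B gene in genomic order (blue wild-type, red Tet1-deficient, circle, square and triangle for replicates 1, 2 and 3, short lines for means). Red points lie below blue ones at Pcdhga3, Pcdhga5, Pcdhga6, Pcdhga9, Pcdhga11 and Pcdhga12 and above them at Pcdhgb4, Pcdhgb6 and Pcdhga10.

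The gamma C isoforms carried most of the gamma output and did not separate the genotypes. Pcdhgc5, whose protein is known to bind GABA-A receptors, was the most abundant clustered protocadherin. Pcdhgc5 measured 57.5, 73.2 and 70.2 FPKM in the wild-type libraries, and 52.2, 69.6 and 66.8 FPKM where Tet1 was deficient (log2 difference −0.093, SE 0.147, unadjusted limma p 0.548), and held 33.6% ± 2.34 in wild-type and 32.8% ± 1.41 in Tet1-deficient libraries of summed gamma FPKM. Pcdhgc3, known for promoting the branching of cortical dendrites, came next. Pcdhgc3 measured 38.8, 44.4 and 46.0 FPKM in the wild-type libraries, and 36.0, 48.9 and 46.4 FPKM where Tet1 was deficient (log2 difference 0.014, SE 0.139, unadjusted limma p 0.923). Pcdhgc4, the isoform known to be needed for the survival of cortical interneurons, measured 6.32, 7.06 and 7.11 FPKM in wild-type libraries against 5.58, 7.95 and 7.32 FPKM in the Tet1-deficient ones (log2 difference 0.012, SE 0.133, unadjusted limma p 0.933). In all 3 genes both libraries that stand apart were below the other 4, as in 5 of 22 gamma genes (22.7%) and 35.0% of all tested genes. The lowest of the 6 was Tet1-deficient replicate 1 for each. Summed markers of GABAergic interneurons were also lowest in that library (423 FPKM, against 493 to 678 FPKM in the others, 7 of 7 listed genes detected), as were those of oligodendrocyte precursors (85.1 against 102 to 123 FPKM, 4 of 4 detected). So were those of oligodendrocytes (2818 FPKM) and endothelial cells (7.14 FPKM). Those of neurons (2432 FPKM) and CA3 pyramidal cells (118 FPKM) were highest in it. Those of astrocytes, microglia, dentate granule cells, CA1 pyramidal cells, meningeal fibroblasts and choroid plexus were neither lowest nor highest in it. In wild-type replicate 1, which also stands apart, GABAergic markers (515 FPKM) were above those of Tet1-deficient replicate 3 (493 FPKM). Precursor markers there (101.5 FPKM) were below the other 4 libraries (102.3 to 123 FPKM). The part of these cell types in the result was not tested.

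Markers of other cell types were set beside the gamma A and B genes. Those of choroid plexus were high in 1 library of each genotype, as given above. Summed astrocyte markers ran from 754 to 987 FPKM over the wild-type and 781 to 959.9 FPKM over the Tet1-deficient libraries, and overlapped. Those of oligodendrocytes ran from 3039 to 3246 FPKM over the wild-type and 2818 to 3647 FPKM over the Tet1-deficient libraries, and of microglia from 60.8 to 68.6 FPKM over the wild-type and 59.4 to 65.3 FPKM over the Tet1-deficient libraries, both with overlap. Meningeal fibroblast markers ran from 5.87 to 20.8 FPKM over the wild-type and 6.03 to 10.4 FPKM over the Tet1-deficient libraries. Dentate granule cell markers summed to 114 to 125 FPKM over the wild-type and 123 to 137 FPKM over the Tet1-deficient libraries, CA1 pyramidal cell markers to 133 to 158 FPKM over the wild-type and 117 to 141 FPKM over the Tet1-deficient libraries and CA3 pyramidal cell markers to 101 to 112 FPKM over the wild-type and 109 to 118 FPKM over the Tet1-deficient libraries, all with overlap. GABAergic interneuron markers ran from 515 to 678 FPKM over the wild-type and 423 to 595 FPKM over the Tet1-deficient libraries. Those of endothelial cells ran from 9.93 to 21.1 and 7.14 to 18.0 FPKM, both with overlap. Log2 means were lower in Tet1-deficient libraries for 4 of 4 CA1, 4 of 4 endothelial, 4 of 4 meningeal and 6 of 7 GABAergic markers. They were higher for 3 of 3 tested CA3 markers, and the other lists held both signs. The part of cell composition in the differences of single isoforms was not tested.

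Of the genes known to act with the clustered protocadherins 0 passed limma's adjusted threshold, where 0.0319% of all tested genes did. At an unadjusted limma p under 0.05 the share of all tested genes was 1.36%. Counts of 0 in lists as short as those below therefore do not set them apart from all tested genes. Of 12 non-clustered protocadherins, which lie outside the arrays and share no exons with them, 10 were tested and 0 had an unadjusted limma p under 0.05, with log2 differences from −0.13 to 0.056 (median −0.026). The activity-regulated Pcdh8 measured 182 ± 4.19 and 172 ± 31.7 FPKM, Pcdh1 66.2 ± 15 and 65.9 ± 11.4 FPKM and Pcdh20 37.0 ± 8.24 and 38.0 ± 6.68 FPKM, in wild-type and Tet1-deficient hippocampus in that order (SD, n = 3). Of 11 tested genes of CTCF and the cohesin ring, its loader and its release factors, 0 had an unadjusted limma p under 0.05, with a median log2 difference of 0.045. Rad21, a cohesin subunit gene, measured 32.8 ± 2.45 and 30.8 ± 1.00 FPKM, Smc1a 30.1 ± 2.88 and 30.9 ± 4.70 FPKM and Pds5b 21.2 ± 3.67 and 23.1 ± 4.61 FPKM, while Ctcf, which binds protocadherin promoters and enhancers, measured 21.3 ± 1.40 and 21.0 ± 1.59 FPKM.

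Among 11 tested genes of DNA methylation and silencing 0 had an unadjusted limma p under 0.05 (background 1.36%). Their log2 differences ran from −0.15 to 0.25 (median 0.032). The most abundant were Hdac3 (41.4 ± 2.67 and 41.4 ± 0.790 FPKM), Trim28 (33.9 ± 1.70 and 31.1 ± 3.16 FPKM) and Tet3 (25.4 ± 11.3 and 26.1 ± 6.14 FPKM). Smchd1, a chromatin protein gene known to act on these arrays, measured 7.16 ± 0.614 and 7.35 ± 0.851 FPKM, and Dnmt3b, the methyltransferase gene known to methylate their promoters in development, was low at 0.186 ± 0.0239 and 0.158 ± 0.0276 FPKM and was not tested. In this list 2 of 11 tested genes (18.2%, against 4.13% of all tested genes) did not overlap between genotypes, the dioxygenase gene Tet2, higher at 8.58 ± 1.19 and 10.3 ± 0.142 FPKM, and the histone methyltransferase gene Setdb1, lower at 8.77 ± 0.0764 and 8.01 ± 0.275 FPKM, both chosen after their values were seen. Of 13 tested genes for the cleavage and signalling of protocadherins, 0 had an unadjusted limma p under 0.05 (median log2 difference 0.025), with Ptk2b, a kinase gene whose product binds alpha and gamma tails, at 315 ± 32.7 and 323 ± 33.9 FPKM. Rac1 measured 119 ± 28.2 and 124 ± 13.7 FPKM and Fyn 62.3 ± 0.307 and 62.7 ± 8.30 FPKM. The 7 genes of the WAVE actin regulatory complex, to which alpha protocadherins are known to connect, also had 0 at this level (median 0.062). Groups did not overlap for 1 of the 7 (14.3%, against 4.13% of all tested genes). This was Cyfip1, which was lower at 23.2 ± 1.03 and 21.6 ± 0.374 FPKM and was chosen after its values were seen. Nckap1 measured 236 ± 45.2 and 250.5 ± 57.8 FPKM, Wasf1 195 ± 11.4 and 204 ± 13.8 FPKM and Cyfip2 186 ± 6.09 and 178 ± 7.80 FPKM.

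The genes beside and between the arrays were compared in the same fit. Of 17 tested neighbours 0 had an unadjusted limma p under 0.05 (background 1.36%). Their log2 differences ran from −0.027 to 0.21 (median 0.037). Taf7, which lies between the beta and gamma arrays and like the beta genes has a single coding exon, measured 2.44 ± 0.617 and 2.52 ± 0.612 FPKM, and Slc25a2, in the same interval, was under 1 FPKM in all libraries. The most abundant neighbours were Ndfip1 (274 ± 12.3 and 284 ± 0.536 FPKM), Ndufa2 (110.3 ± 10.3 and 128 ± 4.70 FPKM) and Zmat2 (110.0 ± 11.1 and 124 ± 28.3 FPKM). Ndufa2, a subunit gene of respiratory complex I, had the smallest unadjusted limma p of the 17 (0.0673, log2 difference 0.21). It measured 99.1, 119 and 112 FPKM in the wild-type libraries, and 131, 122 and 130.5 FPKM where Tet1 was deficient. It was the 1 neighbour of 17 whose groups did not overlap (5.88%, against 4.13% of all tested genes).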

How the data were processed

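The deposited file is the authors' table of FPKM per gene. TopHat2 (version 2.0.9), Cufflinks (version 2.1.1) and build mm10 are named in the submitters' processing notes. Annotation, strand and the treatment of shared reads: not given in the sources used here. Steps of whole reads were sought in 362 genes under 0.03 FPKM, of which at most 5 shared a ratio between 2 libraries to 3 decimals, so no interval that needs counts is given. FPKM summed to 371014 to 390042 per library.

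Genotypes were compared with limma 3.58.1 (R 4.3.3) on log2(FPKM + 1) with an intensity trend, no covariate, a mean of at least 1 FPKM and a threshold of 0.05 on two-sided Benjamini-Hochberg adjusted p-values. Members under the filter were fitted with all rows above 0. The fit was tested on simulated data whose changes were larger than any difference of a member, without the split of libraries. That test gives no measure of how well differences of the size seen in the members are found. Replicate numbers follow sample order, and since separate animals are not stated, p-values measure the spread between libraries, which may be technical. Totals and shares are sums of FPKM, without a test. RefSeq (GRCm38.p6) gave positions for 58 of 59 members, and GENCODE M21 the transcripts of 58. Members described library by library were, per array, the 4 most abundant, the 3 with the smallest p and the C-type members, with others named in the text as chosen after their values were seen. Related genes were the 3 most abundant per list. Ctcf, Smchd1, Dnmt3b, Tet2, Setdb1, Cyfip1, Taf7 and Slc25a2 were named in addition to this rule. Members and lists were chosen with earlier results of these data known. Alternatives were a pseudocount of 0.1, no filter, median-of-ratios or quantile scaling, no trend, library weights, a threshold of 0.1, leaving out each library and, chosen after seeing the data, the split of libraries as a term, 4 libraries alone and sums without Pcdha4-g or Pcdhgb8.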

Additional observations from a re-analysis of the deposited data

How the results depend on the processing

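The number of genes past the threshold was 4 in the whole table and 59 with library weights, 8 with the split of libraries as a term, 13 in the 4 libraries alone and 0 to 6 when 1 library was left out, 0 on removing wild-type replicate 3 or replicate 2 of the Tet1-deficient group and 1 on removing wild-type replicate 2 or replicate 3 of the other group. Of the members, 4 passed with library weights and 0 under each of the other alternatives. The number of members with an unadjusted limma p under 0.05 was 10 of 52 (19.2%), where 1.36% of all tested genes had such a p. With library weights it was 16 of 52, where 9.83% of all tested genes did. When 1 library was left out it was 9 to 13 of 52 to 54 tested members. In the same fits 148 to 226 of 12499 to 12553 tested genes had such a p. Without 1 library the log2 difference ran from 0.52 to 0.68 for Pcdhgb4, 0.43 to 0.65 for Pcdhgb6, −0.75 to −0.52 for Pcdhga3, −0.55 to −0.46 for Pcdhga6 and −0.48 to −0.34 for Pcdhac1. Pcdha12 had a log2 difference of −0.18 with library weights, against −0.37. Of the members with an unadjusted p over 0.05, some changed sign. With library weights Pcdha4 gave −0.019, Pcdhb6 0.0022, Pcdhb7 0.30 and Pcdhb20 0.013, in the 4 libraries Pcdhb7 gave 0.13, and with quantile normalization Pcdhgc3 gave −0.0057. Without 1 library the range was −0.14 to 0.24 for Pcdha4, −0.18 to 0.056 for Pcdhb7, −0.016 to 0.11 for Pcdhb17, −0.095 to 0.038 for Pcdhb20, −0.070 to 0.14 for Pcdhgc3, −0.080 to 0.14 for Pcdhgc4 and −0.20 to 0.033 for Pcdhgc5. The cause was not tested. The log2 ratio of totals without 1 library ran from −0.043 to 0.063 for alpha, −0.058 to 0.12 for beta, −0.12 to 0.029 for gamma, −0.26 to −0.23 for gamma A, 0.14 to 0.32 for gamma B (lowest without Tet1-deficient replicate 2) and −0.13 to 0.079 for gamma C. No paired analysis was possible because the replicate numbers only name libraries. Depth is unknown, so the precision of low members cannot be stated.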
